A study of Mus musculus with 6 samples.

Results

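Receptors for glutamate, GABA, glycine and acetylcholine were examined in retinas of newborn mice that lack cyclin D1. A list of 41 subunit genes was searched for probe sets annotated to 1 gene symbol, current or older. Such probe sets were found for 39 of the 41, of 18193 genes named on the array, and each gene is represented by its brightest probe set on average. Grin1 and Grm6 had none and were not analysed here. The knockout group comprised 3 pools of retinas from Cyclin D1 -/- neonates and the control group 3 pools from wildtype neonates, with no treatment, 1 Affymetrix array a pool. The labels give neither the strain nor the number of animals or litters in a pool, so p-values measure the spread between pools, which may be partly technical. The study's question was in which direction loss of cyclin D1 moves its bound genes, and the receptor genes are followed here through that same comparison.

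Fast transmission runs through ion channels built of several subunits, whose choice sets the transmitter, the speed and the ions that pass. AMPA, kainate and NMDA receptors are cation channels opened by glutamate, GABA-A and glycine receptors are chloride channels, and nicotinic receptors are cation channels opened by acetylcholine, while metabotropic glutamate and GABA-B receptors act through G proteins. At birth the mouse retina has few mature synapses, its bipolar cells are still to come, and waves of activity that spread among starburst amacrine and ganglion cells depend on nicotinic receptors.

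A level below is log2(normalised signal + 16), and a difference is the knockout mean minus the wildtype mean on that scale. Levels of different genes come from different probes and are not set against each other. The deposited table holds no detection calls, so a background level was taken from 86 probe sets of olfactory, vomeronasal and taste receptor genes, which retina is hardly expected to express. Its 95th percentile was 6.74, 6.79 and 6.50 on the arrays of knockout pools 1, 2 and 3 and 6.80, 6.41 and 7.13 on those of wildtype pools 1, 2 and 3. A gene was called above background where it exceeded its array's value in all 3 pools of either genotype. By construction, 5% of the probe sets that set the level lie over it on each array.

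Ccnd1, the gene knocked out, was 8.81 to 8.92 in knockout pools and 12.35 to 12.56 in wildtype pools, a difference of -3.59 (limma adjusted p = 5.78e-07). Retinal neuron markers were present, with 10 of 10 measured ganglion cell markers, 7 of 9 amacrine cell markers and 6 of 7 photoreceptor markers above background, but 1 of 6 bipolar cell markers. The summed normalised signal of the 10 ganglion cell markers was 5941 to 6300 in knockout pools and 3690 to 4147 in wildtype pools, that of the 9 amacrine cell markers 987.9 to 1394 against 1819 to 2789, and that of 14 lens markers 26430 to 67140 against 3488 to 9469. In pooled tissue, fewer cells of a type and less RNA per cell cannot be told apart, and the part of these shifts in any receptor value was not tested. The mean signal of BioB and BioC, bacterial transcripts added as hybridisation controls, was 961 to 1201 on the arrays of knockout pools 1 and 2 and wildtype pool 3 and 771 to 854 on those of knockout pool 3 and wildtype pools 1 and 2. Within each genotype this split also parts pools 1 and 2 from pool 3. Control brightness and other differences between those pools therefore cannot be told apart.

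Of the 39 receptor genes, 12 were above background at birth, which is 30.8% against 45.3% of all named genes. They were the AMPA subunits Gria2 and Gria4, the kainate subunit Grik5, the NMDA subunit Grin3a, the metabotropic receptor Grm7, the GABA-A subunit Gabrb2, the GABA-B subunit Gabbr1, the glycine subunit Glrb, and the nicotinic subunits Chrna3, Chrna4, Chrna6 and Chrnb4. The other 27 include both rho subunits of the GABA-A family and every measured kainate subunit but Grik5. That a gene lay under this level says only that its probe set could not be told from background. Glrb, Chrna6 and Chrnb4 exceeded the level in 3 of 3 knockout pools and 2 of 3 wildtype pools, each missing only wildtype pool 3, whose level was the highest of the 6 arrays. The remaining 9 exceeded it in all 6 pools.

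**Figure D1:**
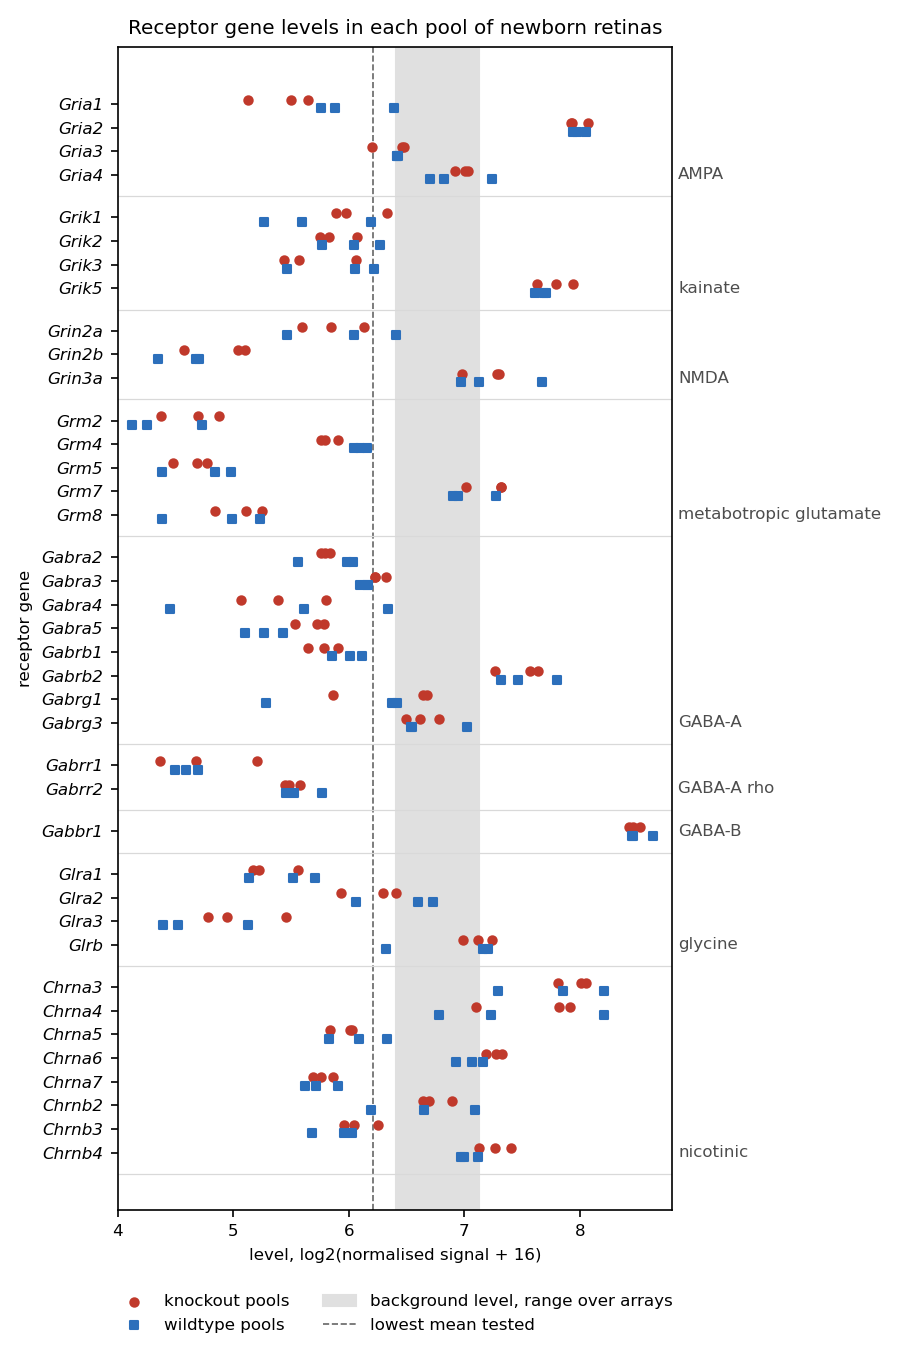
Levels of the 39 measured receptor genes, 1 gene a row, grouped by receptor family. The x axis is log2 of the normalised signal plus 16, round points are the 3 knockout pools and squares the 3 wildtype pools, the grey band spans the background level over the 6 arrays (6.41 to 7.13) and the dashed line is the lowest mean that was tested (6.21). In most genes the points of the genotypes intermix.

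No receptor gene passed the test. A gene was tested where its mean was not among the lowest 40% of genes, which left 10916 genes and 17 receptor genes (limma, Benjamini-Hochberg over all tested genes, called at an adjusted p under 0.1). Among all tested genes 4.66% were called, 2.03% higher and 2.63% lower, and among the 17 receptor genes 0 were. At an unadjusted p under 0.05 the receptor genes gave 0 of 17 as well, where 13.5% of all tested genes fell under it. The smallest adjusted p of a receptor gene was 0.552, for Chrnb4. The median difference of the 17 was 0.10 against 0.02 over all tested genes, with 10 of 17 above 0 against 54.3% of all. The median absolute difference was 0.119 for the receptor genes and 0.128 for all tested genes. A missing call does not show that the genotypes are alike: the 95% interval reached a median of 0.39 to either side, and 0.84 at most, for Chrna4.

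**Figure D2:**
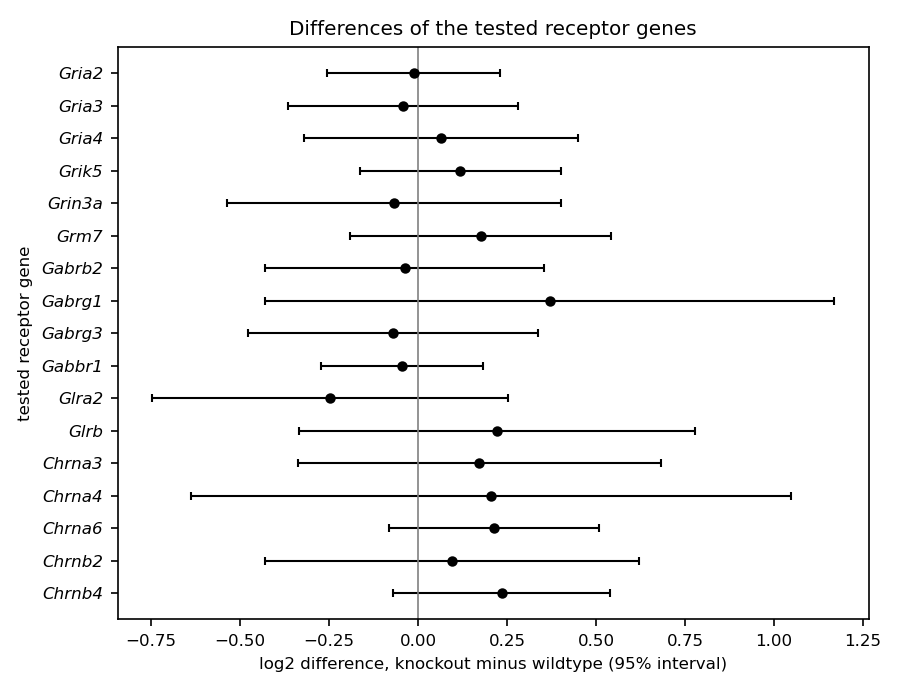
Log2 differences, knockout minus wildtype, of the 17 tested receptor genes, with 95% intervals from the limma fit on 3 pools of each genotype. Every interval spans 0; that of Gabbr1 is the narrowest (-0.27 to 0.18) and that of Chrna4 the widest (-0.64 to 1.05).

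The filter on dim genes, at a mean level of 6.21, ran through the list. Gabrg1, a GABA-A gamma subunit, lay just inside it with a mean of 6.21 and Glra2, the glycine receptor alpha subunit typical of immature neurons, with 6.34. Gabra3, a GABA-A alpha subunit, lay just outside with 6.20 and Chrna5, a nicotinic subunit that joins others as an accessory, with 6.02. With no filter all 39 receptor genes were tested, and 0 were called, the smallest adjusted p being 0.402.

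Of the glutamate receptor channels, 5 genes were tested (Gria2, Gria3, Gria4, Grik5 and Grin3a) and 0 were called, with differences of -0.07 to 0.12. Gria2, the AMPA subunit that keeps calcium out of the channel, was 7.92, 7.93 and 8.07 in knockout pools 1, 2 and 3 and 7.97, 8.05 and 7.94 in wildtype pools 1, 2 and 3. The pools of the genotypes intermix, and the difference was -0.01 (SE 0.11, 95% interval -0.25 to 0.23, limma adjusted p = 0.991). Gria4, another AMPA subunit, averaged 6.99 ± 0.06 in knockout pools and 6.92 ± 0.28 in wildtype pools (SD, n = 3 each), a difference of 0.06 with an interval of -0.32 to 0.45. Gria3 differed by -0.04 (interval -0.36 to 0.28) and lay over the background level in 1 of 6 pools. Gria1 was not tested: its levels of 5.50, 5.13 and 5.65 in knockout pools and 5.88, 6.39 and 5.76 in wildtype pools did not overlap, but every value lay under the background level. The other Gria1 probe set, also under that level, differed by -0.16 against -0.58 here, with overlapping pools.

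Of the kainate subunits, Grik5, which binds glutamate tightly but needs a partner of the Grik1 to Grik3 kind to form a channel, was 7.94, 7.79 and 7.63 in knockout pools and 7.70, 7.69 and 7.61 in wildtype pools. Knockout pools 1 and 2 stood over all wildtype pools and knockout pool 3 within them, for a difference of 0.12 (SE 0.12, interval -0.16 to 0.40, adjusted p = 0.839), which was 0.04 without knockout pool 1. Its partners Grik1, Grik2 and Grik3 were under the background level in all 6 pools, with differences of 0.38, -0.14 and -0.22 that have overlapping pools.

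Among NMDA subunits, Grin3a, which lowers the calcium flow of the channel and is known from the young nervous system, was 7.30, 7.29 and 6.98 in knockout pools and 7.12, 6.97 and 7.67 in wildtype pools. Its 3 highest values came from the 3 arrays with brighter hybridisation controls, whichever the genotype, and the difference was -0.07 (SE 0.20, interval -0.54 to 0.40, adjusted p = 0.961). Grin2a and Grin2b, which carry the glutamate site, were under the background level in all pools, Grin2b with means of 4.91 ± 0.29 in knockout pools and 4.58 ± 0.20 in wildtype pools and 4 probe sets that were all dim (4.23 to 4.74).

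Of the metabotropic glutamate receptors, Grm7, a presynaptic receptor that damps release, was the one above background. It was 7.02, 7.32 and 7.31 in knockout pools and 6.90, 6.94 and 7.28 in wildtype pools, and wildtype pool 3 lay among the knockout pools. The difference was 0.18 (SE 0.16, interval -0.19 to 0.54, adjusted p = 0.797). Grm4, of the same presynaptic group, was 5.76, 5.91 and 5.80 in knockout pools and 6.04, 6.16 and 6.10 in wildtype pools, apart by genotype but under the background level and not tested. Grm2, Grm5 and Grm8 had means of 4.51 to 4.97 with overlapping pools.

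GABA receptors gave no called difference either. Gabrb2, the GABA-A beta subunit that was above background, was 7.56, 7.64 and 7.26 in knockout pools and 7.32, 7.46 and 7.81 in wildtype pools. As with Grin3a, the arrays with brighter hybridisation controls gave the 3 highest values, and the difference was -0.04 (SE 0.17, interval -0.43 to 0.35, adjusted p = 0.978). Its 5 probe sets differed by -0.21 to 0.03. Gabrg1 was 6.68, 6.64 and 5.87 in knockout pools and 6.41, 5.29 and 6.37 in wildtype pools, a spread of more than 1 unit within a genotype, and its difference of 0.37 had the interval -0.43 to 1.17 (adjusted p = 0.807). The difference was 0.002 without wildtype pool 2 and 0.63 without knockout pool 3. Gabrg3, another gamma subunit, differed by -0.07 (interval -0.48 to 0.34). The alpha subunits Gabra2, Gabra3, Gabra4 and Gabra5 and the beta subunit Gabrb1 were under the background level in every pool. Of these, Gabra5 was 5.73, 5.53 and 5.79 in knockout pools and 5.43, 5.27 and 5.11 in wildtype pools, apart by genotype, with a difference of 0.41 and, with no filter on dim genes, an adjusted p of 0.402. Gabra3 was 6.23, 6.32 and 6.22 in knockout pools and 6.16, 6.10 and 6.16 in wildtype pools, also apart, with a difference of 0.12. Its other probe set differed by -0.01 with overlapping pools. The rho subunits Gabrr1 and Gabrr2, which bipolar cells use in the mature retina, were under the background level and had overlapping pools. Gabrr2 was at 5.45, 5.58 and 5.48 in knockout pools and 5.45, 5.53 and 5.77 in wildtype pools.

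Gabbr1, the GABA-B subunit that binds GABA, was 8.46, 8.43 and 8.52 in knockout pools and 8.46, 8.63 and 8.45 in wildtype pools. These pools intermix, and the difference was -0.04 (SE 0.10, interval -0.27 to 0.18, adjusted p = 0.953). The subunit it needs as a partner, Gabbr2, was not analysed here.

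Glycine receptors pair an alpha subunit that binds glycine with the beta subunit Glrb, which anchors the receptor to the scaffold gephyrin. Glrb was 7.12, 6.99 and 7.24 in knockout pools and 7.20, 7.16 and 6.32 in wildtype pools. Wildtype pool 3 alone was low, and the other 5 pools lay within 6.99 to 7.24. The difference was 0.22 with all pools (SE 0.24, interval -0.34 to 0.78, adjusted p = 0.852) and -0.07 without wildtype pool 3. This probe set is of a type that may match more than 1 transcript, and the other Glrb probe set was not above background. Glra2 was 5.94, 6.29 and 6.41 in knockout pools and 6.60, 6.73 and 6.06 in wildtype pools. Here the 3 arrays with brighter hybridisation controls, knockout pools 1 and 2 and wildtype pool 3, gave the 3 lowest values. Its difference was -0.25 (SE 0.22, interval -0.75 to 0.25, adjusted p = 0.785), and leaving out 1 pool gave -0.11 (knockout pool 1) to -0.46 (wildtype pool 3). Glra1 and Glra3 were under the background level, with differences of -0.14 and 0.38.

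Nicotinic subunits are known in the retina mainly from ganglion and amacrine cells. Of them 4 of 8 were above background, where 2 of 4 AMPA subunits were. Chrna6 and Chrnb4 passed through the knockout pools alone, in which they were higher. Both missed in wildtype pool 3 only, at 7.06 and 7.12 against its background level of 7.13. The count is thus not independent of genotype or of the level of that array. The differences of the 8 nicotinic genes were above 0 in 7, from -0.12 to 0.24, and 0 of the 5 tested were called. Of all tested genes 54.3% had a difference above 0. Among the 5 tested nicotinic genes, the signs rested on single arrays in 3. Without wildtype pool 2 Chrna3 was at -0.08 and Chrna4 at -0.11, and without wildtype pool 3 Chrnb2 was at -0.13. The untested nicotinic genes were not refitted with an array left out, so how far their signs hold is not known. The summed signal of ganglion cell markers was higher in knockout pools, as given above, and its part in these values was not tested. Chrna6 and Chrnb4 were the 2 of 17 tested receptor genes whose pools did not overlap between genotypes, where 20.0% of all tested genes had this. Of all 39 receptor genes 6 had it, against 16.1% of named genes. Chrnb4, a beta subunit that pairs with Chrna3, was 7.26, 7.40 and 7.12 in knockout pools and 6.97, 6.99 and 7.12 in wildtype pools. Knockout pool 3 and wildtype pool 3 were almost level, and the difference was 0.24 (SE 0.13, interval -0.07 to 0.54, adjusted p = 0.552). The other Chrnb4 probe set, above background too, was 7.06, 6.89 and 7.42 in knockout pools and 6.80, 6.85 and 6.52 in wildtype pools, again apart and by 0.40. It exceeded the background level in 3 of 3 knockout pools and 2 of 3 wildtype pools, so it counts as above background through the genotype in which it was higher, and no support is drawn from its passing. Chrnb4 was the sole receptor gene of 29 with several probe sets in which 2 were apart in the same direction. How many of all genes with several probe sets show this was not counted, so no support is drawn from it. With all probe sets of a gene averaged, the difference of Chrnb4 was 0.32 with an adjusted p of 0.202.

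Chrna6, an alpha subunit of ganglion cell nicotinic receptors, was 7.27, 7.19 and 7.33 in knockout pools and 6.93, 7.16 and 7.06 in wildtype pools. The lowest knockout pool exceeded the highest wildtype pool by 0.03, and the difference was 0.21 (SE 0.13, interval -0.08 to 0.51, adjusted p = 0.589). Its other probe set, under the background level, differed by 0.23 with overlapping pools. Chrna3, the alpha subunit of ganglion-type receptors, was 8.05, 8.01 and 7.81 in knockout pools and 7.86, 7.29 and 8.20 in wildtype pools. The wildtype pools span the knockout pools on both sides, and the difference was 0.17 (SE 0.22, interval -0.34 to 0.68, adjusted p = 0.882). Without wildtype pool 3 it was 0.39. Chrnb2, a beta subunit needed for the early retinal waves, averaged 6.74 ± 0.14 in knockout pools and 6.65 ± 0.45 in wildtype pools (SD, n = 3 each) and lay over the background level in 1 pool of each genotype, with a difference of 0.10 and an interval of -0.43 to 0.62. Chrna5 was 6.02, 5.84 and 6.01 in knockout pools and 6.33, 5.83 and 6.09 in wildtype pools. Chrna5, Chrna7 and Chrnb3 were under the background level in all pools, with differences of -0.12, 0.02 and 0.20.

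Chrna4 is a common partner of Chrnb2, and its level differed between arrays within both genotypes. It was 7.82, 7.92 and 7.10 in knockout pools and 7.23, 6.78 and 8.20 in wildtype pools. The 3 arrays with brighter hybridisation controls read 7.82 or more and the other 3 read 7.23 or less, so the values fall apart by array set and not by genotype. The difference was 0.20 over all pools (SE 0.37, interval -0.64 to 1.05, adjusted p = 0.932), -0.34 within the brighter set and 0.09 within the dimmer set. Without wildtype pool 3 it was 0.61 (adjusted p = 0.164). A different Chrna4 probe set above background was 7.18, 7.16 and 7.36 in knockout pools and 7.31, 7.44 and 6.93 in wildtype pools. There the brighter arrays gave the 3 lowest values, so that probe sets of the same gene ran in opposite directions across the array sets. Among the 17 tested receptor genes, 5 were higher on every brighter array than on any dimmer one (Grin3a, Gabrb2, Gabrg3, Chrna3 and Chrna4), against 17.2% of all tested genes, and 3 were lower (Gria2, Glra2 and Glrb). In either direction, 32.5% of all tested genes were apart by array set, against 20.0% apart by genotype.

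**Figure D3:**
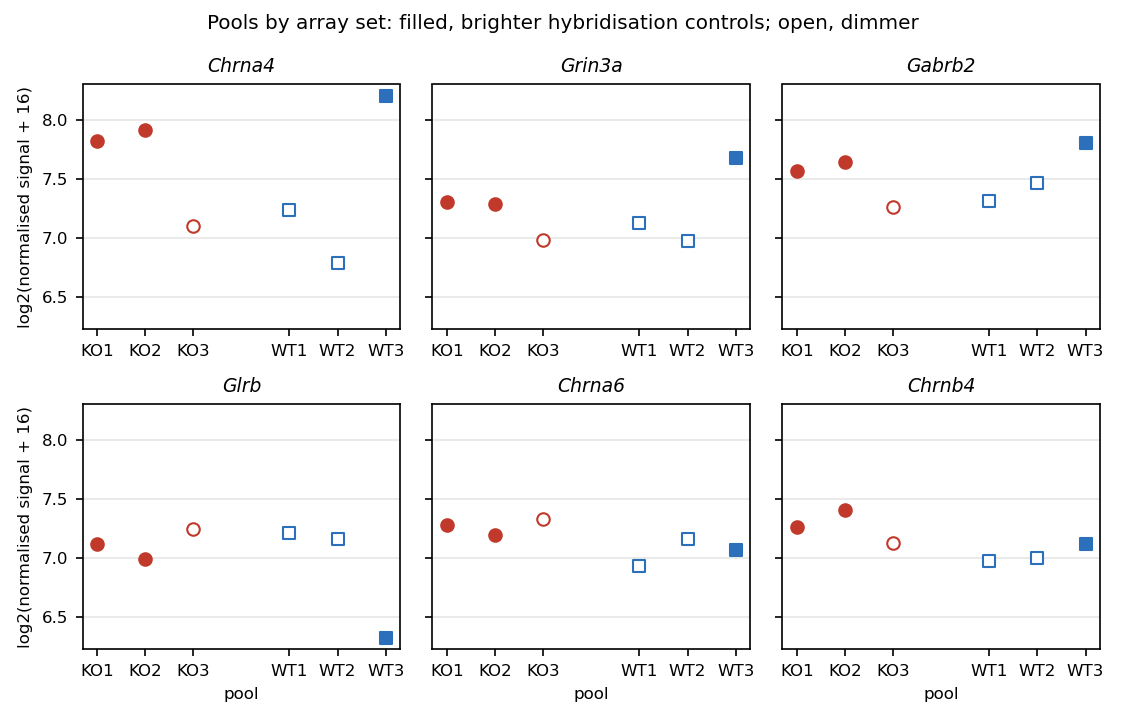
Levels of 6 receptor genes in each pool (KO, knockout; WT, wildtype; pool number after it), as log2 of the normalised signal plus 16. Filled points are the arrays with brighter hybridisation controls. In Chrna4, Grin3a and Gabrb2 all filled points lie above the open points, in Glrb below them, and in Chrna6 and Chrnb4 the knockout pools lie above the wildtype pools.

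All probe sets of the receptor genes were then compared within the same arrays. The 39 genes had 89 probe sets, up to 5 a gene, and 14 of the 89 were above background. Both Chrna4 and Chrnb4 had more than 1 such probe set. In 15 of the 29 genes with several probe sets, all of them differed in the same direction. Pools did not overlap between genotypes in 12 of the 89, 7 of them higher and 5 lower in the knockout. The share over all probe sets of the array was not counted. Over all named genes, with 1 probe set a gene, it was 16.1%. The probe sets of Gabrg3 included 1 of each kind (0.56 and -0.46), both under the background level.

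**Figure D4:**
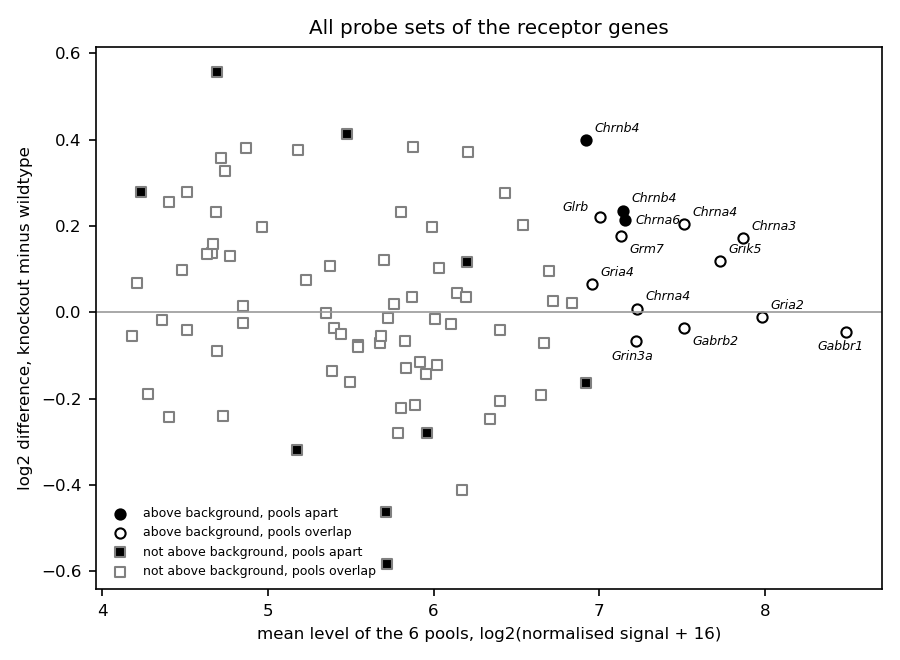
Log2 difference, knockout minus wildtype, against the mean level of the 6 pools for the 89 probe sets of the receptor genes. Circles are above background and squares are not, and filled symbols mark probe sets whose pools do not overlap between genotypes. Differences among the circles range from -0.07 to 0.40, and the 3 filled circles are those of Chrna6 and Chrnb4. These 3 count as above background through the knockout pools alone, in which they were higher, so no support is drawn from their passing.

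Several receptor genes neighbour each other with no protein-coding gene between them in the RefSeq order: Chrna5, Chrna3 and Chrnb4 on chromosome 9, Chrnb3 and Chrna6 on chromosome 8, Gabrg1 and Gabra2, and Gabra4 and Gabrb1, on chromosome 5, Gabrg3 and Gabra5 on chromosome 7, Gabrr2 and Gabrr1 on chromosome 4, and Gria2 and Glrb on chromosome 3. Of these 8 adjacent pairs, 6 were alike in detection, 2 with both genes above background and 4 with neither, and 2 pairs had 1 gene above it. With 12 of 39 receptor genes above background, many pairs would be alike however the genes are paired, and that share was not counted. In the run of 3 nicotinic genes Chrna3 and Chrnb4 were above background and Chrna5 was not, and of the pair on chromosome 8 Chrna6 was and Chrnb3 was not. The 250 bases before the start of Chrna5 (the more downstream of 2 starts), Chrna3 and Chrnb4 are shown because these adjacent genes differ in detection, and Chrnb4 had the smallest p of the list. They are RefSeq sequences of build GRCm38.p6, written 5′ to 3′ on the strand of the gene, with capitals marking GGGCGG, a GC box, on either strand.
Chrna5 (chr9:54981238-54981487, plus strand): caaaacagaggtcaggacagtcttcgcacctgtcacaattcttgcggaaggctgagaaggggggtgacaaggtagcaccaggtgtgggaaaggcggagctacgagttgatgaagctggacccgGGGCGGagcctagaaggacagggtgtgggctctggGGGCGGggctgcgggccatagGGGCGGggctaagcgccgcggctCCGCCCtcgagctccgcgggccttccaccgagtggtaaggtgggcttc
Chrna3 (chr9:55026563-55026812, minus strand): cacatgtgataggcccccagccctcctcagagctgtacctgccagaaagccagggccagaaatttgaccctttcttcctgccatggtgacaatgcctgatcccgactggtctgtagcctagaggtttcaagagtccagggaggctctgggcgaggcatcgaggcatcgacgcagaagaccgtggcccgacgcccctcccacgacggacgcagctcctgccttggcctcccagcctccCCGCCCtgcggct
Chrnb4 (chr9:55048545-55048794, minus strand): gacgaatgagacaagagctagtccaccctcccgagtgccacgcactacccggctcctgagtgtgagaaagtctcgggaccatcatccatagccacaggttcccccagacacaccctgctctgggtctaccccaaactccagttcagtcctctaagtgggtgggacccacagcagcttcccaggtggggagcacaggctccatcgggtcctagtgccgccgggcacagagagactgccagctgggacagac
The Chrna5 stretch holds 4 matches to GGGCGG, that of Chrna3 holds 1 and that of Chrnb4 0. The window of the other Chrna5 start (chr9:54980630-54980879, plus strand) holds 0 and has 40% G and C, so the count for Chrna5 depends on the start taken. The sequence CAGCTG, an E-box, was found 1 time before Chrnb4 and not in the other two. G and C made up 65.2%, 63.2% and 61.2% of the bases in the windows shown of Chrna5, Chrna3 and Chrnb4. Such windows were at hand for 30 of the 41 genes, 38 windows in all. GGGCGG occurred in 8 of 13 windows of genes above background and 11 of 23 windows of measured genes that were not, against 32.7% of all 32851 windows, and CAGCTG in 1 and 1, against 13.0%. The median share of G and C was 62.4% and 56.4%, against 52.4% over all windows, and the ranges of 36.8% to 75.2% and 35.6% to 82.0% overlap. A match is a description of the letters and not a binding site.

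Genes that work with the receptors were counted in lists. Of 27 further receptor subunits, 19 were measured and 3 tested (Gabrp, Grik4 and Chrna9), and 0 were called, with differences of -0.12 to -0.07. Of 16 tested auxiliary subunits and assembly factors, 0 were called, with a median of 0.14. At an unadjusted limma p under 0.05, 4 were higher and 1 lower, against 13.5% of all tested genes either way. Pools did not overlap between genotypes in 7 of the 16, against 20.0% of all tested genes. The smallest p in that list belonged to Ly6h, a protein that limits nicotinic receptors at the surface, at 8.65 ± 0.04 in knockout pools and 8.07 ± 0.32 in wildtype pools (SD, n = 3 each), a difference of 0.58 with an adjusted p of 0.119. Of 23 tested scaffold and adhesion genes, 0 were called, with a median of 0.03. Gphn, which encodes gephyrin, differed by 0.07 and Dlg4, the scaffold PSD-95 of glutamate synapses, by 0.08.

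Gad1 and Slc32a1, which serve the making and packing of GABA, fell in knockout retinas, and Gad2 did not pass the test. Of 19 tested genes of transmitter synthesis, packaging and uptake, 2 were called lower and 0 higher, against 2.63% and 2.03% of all tested genes. At an unadjusted limma p under 0.05, 4 were lower and 4 higher, against 13.5% of all tested genes either way. Pools did not overlap between genotypes in 10 of the 19, against 20.0% of all tested genes. Gad1, which makes GABA, was 6.89, 6.88 and 7.06 in knockout pools and 7.79, 7.75 and 7.72 in wildtype pools (difference -0.81, SE 0.12, adjusted p = 0.0118). Slc32a1, which loads GABA and glycine into vesicles, was 6.38, 6.42 and 6.58 in knockout pools and 7.39, 7.58 and 7.14 in wildtype pools, with no overlap (difference -0.91, SE 0.16, adjusted p = 0.0219). The Slc32a1 call ended without knockout pool 1 or 2 or wildtype pool 1 (adjusted p = 0.124, 0.130 and 0.103), and that of both genes with pools 1 and 2 of each genotype averaged (0.423 for Slc32a1 and 0.352 for Gad1). Both are also amacrine cell markers and so part of that list's summed signal, which was lower in knockout pools as given above. Of 7 tested genes on that list 4 were called lower, and 1, Slc6a9, had a difference above 0 (0.13). The part of the marker shift in these falls was not tested. Gad2, the other GABA-making enzyme, was 7.23, 7.00 and 6.41 in knockout pools and 6.82, 6.62 and 7.21 in wildtype pools (difference -0.00, interval -0.57 to 0.56, adjusted p = 0.999). Slc17a6, which loads glutamate into vesicles and is also a ganglion cell marker, was 7.29 ± 0.05 in knockout pools and 6.82 ± 0.10 in wildtype pools (SD, n = 3 each), with an adjusted p of 0.113 that missed the threshold. Chat, Slc18a3 and Slc5a7, which make, pack and retrieve acetylcholine, were under the background level in both genotypes.

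Grm6, the receptor by which ON bipolar cells sense glutamate, was not analysed, and the genes of its signalling complex were counted. Their count does not stand in for Grm6, since bipolar cells are still to come at birth. Of 6 tested, 2 were called higher and 0 lower, against 2.03% and 2.63% of all tested genes. Gnb3, a G protein beta subunit shared with cones, was 9.70 ± 0.10 in knockout pools and 9.21 ± 0.13 in wildtype pools (adjusted p = 0.0424), and Gnb5, a partner of the G protein regulators Rgs7 and Rgs11, was 8.64 ± 0.07 in knockout pools and 8.20 ± 0.05 in wildtype pools (SD, n = 3 each, adjusted p = 0.0551). Gnb3 is also on the photoreceptor marker list and so part of its summed signal. That sum was 6351 to 6638 in knockout pools and 3621 to 4821 in wildtype pools, and its part in the rise of Gnb3 was not tested. Over 20 alternative settings Gnb3 was called in 13 and Gnb5 in 9, and neither was called without knockout pool 1, 2 or 3 (adjusted p of 0.163, 0.140 and 0.140 for Gnb3 and 0.186, 0.319 and 0.150 for Gnb5). Gnb5 also lost its call without wildtype pool 1 or 2 (0.222 and 0.159) and Gnb3 without wildtype pool 2 (0.105). Trpm1, the channel that Grm6 controls, differed by -0.17 (adjusted p = 0.854) and was not above background. Nyx, Rgs7 and Gnao1, also tested, differed by 0.22, 0.01 and 0.10 and were not called. Gpr179, Rgs11, Gng13 and Rgs9bp were not above background and were not tested.

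**Figure D5:**
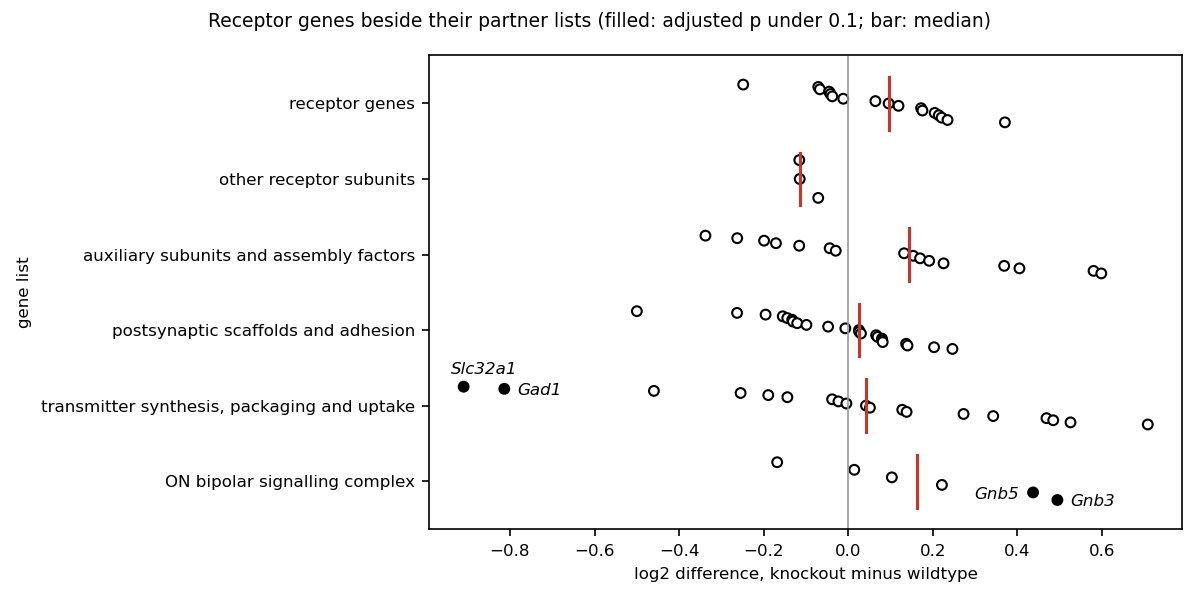
Log2 differences, knockout minus wildtype, of the tested genes in each list, with the list on the y axis and a red bar at its median. Filled points passed an adjusted p of 0.1: Slc32a1 and Gad1, lower in the knockout, and Gnb5 and Gnb3, higher. The 17 receptor genes at the top span -0.25 to 0.37 and have no filled point.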

How the data were processed

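Retinal RNA from 3 knockout and 3 wildtype pools was made into biotin-labelled cRNA with 1 amplification round for Affymetrix arrays, per the labels' protocols. The deposited table holds 1 linear signal intensity per probe set and array; how the authors summarised and scaled the probes is not stated in the sources at hand. Of 45101 probe sets, 64 controls were left out, 34945 had 1 gene symbol and were used, 932 had several and 9160 were unnamed. Symbols of 34741 were brought up to date through RefSeq gene names of assembly GRCm38.p6.

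Median log2 signal ran from 5.34 to 5.66 between arrays, beyond a tolerance of 0.1, so the linear values were quantile normalised, floored at 1 and taken to log2(value + 16), a scale that understates changes of dim genes. The dimmest 40% of genes (7277) were left untested. For the others limma 3.58.1 (R 4.3.3) compared knockout with wildtype pools by lmFit and eBayes, allowing the variance to follow intensity, two-sided, with Benjamini-Hochberg adjustment and the false discovery rate of 0.1 in the labels. The fit was tested on simulated data. The number of arrays limits the precision.

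Pools 1 and 2 were more alike (log2 differences with an SD of 0.21 in knockout and 0.22 in wildtype) than any other 2 arrays (0.28 to 0.52), and all 6 were kept as samples. Given with pool values were the members of each family with the highest mean, those around the dim filter, those apart by genotype with an unadjusted p under 0.05 (0 tested genes), and Chrna3. Gria1, Grm4, Gabra5, Chrna4, Chrna6 and Chrnb4 were added after their values were seen. So were, outside the list, Gad2, Slc17a6, Slc6a9, Ly6h, Gphn, Dlg4, the acetylcholine genes and the uncalled genes of the Grm6 signalling complex, Trpm1 among them. The members, gene lists and settings were chosen with earlier results of these data known. Promoter windows came from RefSeq. Figures were drawn with matplotlib 3.10.9.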

Additional observations from a re-analysis of the deposited data

How the results depend on the processing

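In 19 of 20 alternative settings 0 receptor genes were called. The exception was array weights, with 3 higher (Grm7, Chrna4 and Chrnb4, adjusted p = 0.0959, 0.0517 and 0.0418) and 1 lower (Glra2, 0.0664). That fit gave wildtype pool 3 a weight of 0.154 and wildtype pool 1 a weight of 2.55, and called 1862 genes higher and 1747 lower in all. The sign of the difference changed in at least 1 setting for 11 of the 17 tested receptor genes and in none of those that tested the gene for 6 (Grik5, Chrna6 and Chrnb4 in 20, Glra2 in 19, Grm7 in 18 and Gabrg1 in 12, where it came down to 0.002). Settings that changed only the dim filter, the intensity trend, the threshold or the replicate block left each difference as it was. They could not change a sign, and neither could the choice of probe set for Grik5 and Glra2, which have 1 each. Genes above background numbered 12 in 9 of 12 settings, 13 with the 90th percentile of the chemosensory probe sets, 9 with the 99th and 9 when all 6 arrays were required. Settings that left out 1 array or took any probe set of the gene loosened the rule and could hardly lose a gene.

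Counts over all genes, 222 higher and 287 lower, were 416 and 176 with values as deposited (70.3% rises against 43.6%, median difference 0.13), 135 lower with arrays centred on their medians, where 53.6% were rises, 127 higher at a threshold of 0.05, 597 and 433 with a block for hybridisation control brightness, and 17 and 26 after averaging pools 1 and 2. Leaving out 1 array gave 69 to 865 higher and 108 to 1079 lower. Adding a replicate block gave 126 higher and 143 lower, and 0 receptor genes were called; same-numbered deviations from the group means correlated at 0.17, -0.35 and -0.48, so the numbers are not shown to pair the pools, and 1 of 6 samples correlated best with their own number. That block also ended the calls of Slc32a1, Gnb3 and Gnb5 (adjusted p = 0.131, 0.149 and 0.172). The cause of these differences was not tested.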
